A study of Homo sapiens with 3 samples.

Results

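Genes of bone morphogenetic protein (BMP) signalling were followed in PC3-Luc cells in which the secreted glycoprotein gene CTHRC1 had been lowered with short hairpin RNAs. The 10 genes are NOG, BMP4, BMPR1A, BMPR2, BAMBI, SMAD1, SMAD6, ID1, ID2 and ID3. They were taken from the deposited count table by gene symbol, were found once each among its 21726 genes, and were chosen by their role in the pathway with the fitted changes of all 3 comparisons of these 9 libraries known. Their changes between the lines are therefore given as a description, and no test is drawn on them. PC3 cells come from a prostate adenocarcinoma that had spread to bone, and grow without androgen. Every line carries a luciferase gene from a pMSCV vector. The sh718 and sh720 lines hold a hairpin against CTHRC1 each, and the shCtrl line a control hairpin, with 3 libraries per line. Cells had been in 6-well plates for 24 h, and single reads of 75 bp were made. The labels do not say whether a line is a clone or a pool, nor whether its 3 libraries came from separate cultures, so SDs and p-values cover the spread among the libraries, and that may be technical only.

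BMP ligands such as BMP4 bind a pair of receptor types, of which BMPR1A is a type I and BMPR2 a type II receptor kinase. The type I kinase phosphorylates SMAD1, which enters the nucleus with SMAD4 and turns on genes, the ID genes and SMAD6 among the best known. NOG (Noggin) is a secreted protein that wraps BMP ligands and keeps them from their receptors, BAMBI is a receptor-like protein without a kinase that dampens signalling, and SMAD6 is an inhibitory SMAD that closes a feedback loop. ID proteins have a helix-loop-helix but no DNA-binding region, and hold E proteins away from DNA. In bone, where prostate cancer often spreads, BMPs drive osteoblast formation and Noggin opposes it.

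The promoters of the 3 ID genes are shown because ID1 and ID2 lay on opposite sides of the control line in both hairpin lines (values below in the account of the ID genes). Each is the window of 250 bases before the gene's RefSeq start (table of build GRCh38.p14), written 5' to 3' along the gene's own strand. Capitals mark GTCT on either strand (GTCT or AGAC), the short box that SMAD proteins bind.
ID1, GRCh38 chr20:31605039-31605288, plus strand: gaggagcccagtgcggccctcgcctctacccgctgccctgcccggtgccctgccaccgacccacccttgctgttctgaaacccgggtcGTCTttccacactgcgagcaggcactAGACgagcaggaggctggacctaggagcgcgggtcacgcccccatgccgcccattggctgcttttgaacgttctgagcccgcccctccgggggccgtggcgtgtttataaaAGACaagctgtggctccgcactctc
ID2, GRCh38 chr2:8681806-8682055, plus strand: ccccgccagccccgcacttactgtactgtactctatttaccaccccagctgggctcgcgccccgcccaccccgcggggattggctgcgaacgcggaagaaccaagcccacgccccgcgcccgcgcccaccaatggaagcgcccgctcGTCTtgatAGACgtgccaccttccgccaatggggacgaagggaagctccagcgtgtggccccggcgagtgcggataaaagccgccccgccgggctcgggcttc
ID3, GRCh38 chr1:23559502-23559751, minus strand: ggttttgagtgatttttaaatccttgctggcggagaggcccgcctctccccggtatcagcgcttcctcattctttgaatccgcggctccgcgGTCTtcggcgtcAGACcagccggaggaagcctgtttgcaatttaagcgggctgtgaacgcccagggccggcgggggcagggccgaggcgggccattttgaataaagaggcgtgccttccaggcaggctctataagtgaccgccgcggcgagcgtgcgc

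ID1 held 3 such boxes, and ID2 and ID3 held 2 each. Of 34788 distinct RefSeq windows of this length, 77.5% held at least 1 and 45.6% at least 2. The letters GGCGCC, a GC-rich motif of BMP-responsive enhancers that reads alike on both strands, were in none of these 3 windows and in 16.4% of all windows. Sequence outside the windows was not searched, so this does not say whether the ID genes have the motif elsewhere. RefSeq windows were found for 9 of the 10 genes, all but NOG, and some genes have several starts. GGCGCC lay in a window of 4 of them, BMP4, BMPR2, BAMBI and SMAD1. The 16.4% counts single windows, whereas a gene with several starts had several windows. The BAMBI window held it 3 times, at 209, 196 and 181 bases before the start, and was 81.2% G and C. A SMAD1 window held it at 235 and 93 bases before its start, and another at 249 and 211. Of all windows, 3.09% held it at least 2 times. The E-box CANNTG, the site of E proteins, was in the ID2 window once and in those of ID1 and ID3 not at all, against 61.8% of all windows with at least 1.

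Library totals ran from 883663 to 1108960 counts. Levels are a gene's counts per 1000000 counts of the library (CPM), scaled by edgeR's TMM factors. Each change is on the log2 scale, with the standard error (SE) and 95% interval of edgeR's quasi-likelihood fit of all 9 libraries. The targeted gene CTHRC1 had 2.32, 1.99 and 1.04 CPM in sh718, 18.2, 19.5 and 9.55 CPM in sh720, and 97.7, 130 and 115 CPM in shCtrl. Epithelial markers matched the label in part. KRT8, KRT18 and KRT19 averaged 194 to 1005 CPM in each line, and EPCAM 14.2 CPM in sh718, 39.8 in sh720 and 37.3 in shCtrl, while CDH1 had 1, 8 and 6 counts over the libraries of the same lines. The luminal prostate markers KLK2 and KLK3 were not found by symbol among the genes of the deposited counts. Markers of leukocytes, endothelium and fibroblasts were low except PECAM1, which averaged 48.9 CPM in sh718, 19.7 in sh720 and 23.8 in shCtrl.

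Against shCtrl, 4 of the 10 genes passed the threshold in sh718. NOG and ID1 were higher, and ID2 and SMAD6 lower. In sh720 against shCtrl 3 passed, with ID1 and SMAD1 higher and ID2 lower. In sh718 against sh720 there were again 3, NOG and ID2 being higher and SMAD1 lower. The threshold is an adjusted p under 0.05 in edgeR's test over all 9556 genes with at least 60 counts over the 9 libraries, which all 10 genes met. Of all tested genes, 20.4% passed in the first comparison (9.56% higher and 10.8% lower), 6.85% in the second (3.43% higher and 3.42% lower) and 25.3% in the third (12.3% higher and 13% lower), and nothing is read from the members' counts beside these, since the choice of genes used the same comparisons. The libraries of the 2 lines compared did not overlap for 4, 5 and 3 of the 10 genes, against 33.5%, 23.5% and 37.1% of all tested genes. The median log2 change of the 10 genes was -0.24, -0.10 and 0.04, against 0.0024, 0.0015 and -0.0021 over all tested genes. Both comparisons against shCtrl use the same 3 control libraries, so their values are not independent of each other.

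**Figure D1:**
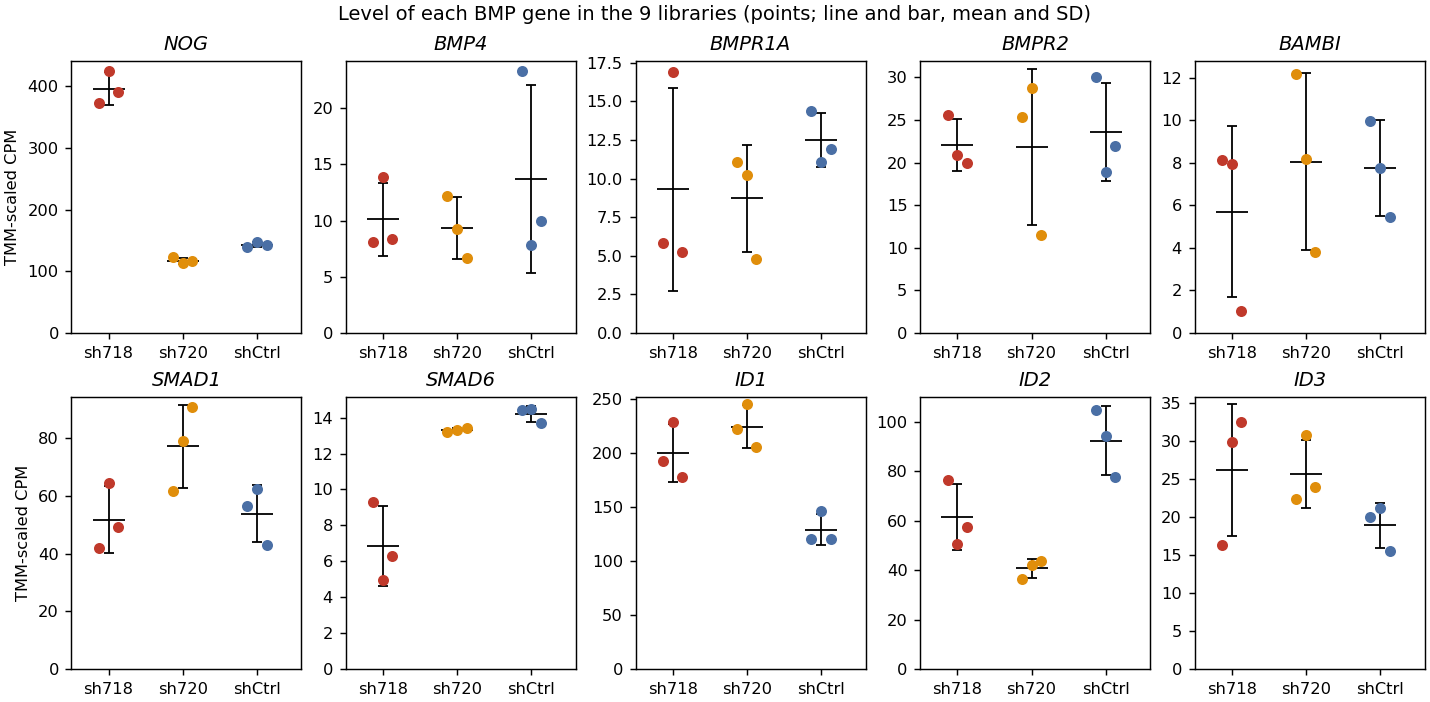
TMM-scaled CPM (y axis, from 0, a scale of its own for each gene) of the 10 genes in the sh718, sh720 and shCtrl libraries; points are libraries, and the line and bar are the mean and SD of 3. NOG stood at 373 to 425 CPM in sh718 and at 113 to 148 in all other libraries, ID1 was higher and ID2 lower in both hairpin lines than in shCtrl.

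NOG had the largest change of the 10 genes, in sh718. NOG (ENSG00000183691, GRCh38 chromosome 17, 56593699 to 56595590, plus strand) had 373, 425 and 390 CPM in the sh718 libraries, 123, 113 and 116 CPM in the sh720 libraries, and 139, 148 and 142 CPM in the shCtrl libraries. All 3 sh718 libraries lay far above the other 6, and all 3 sh720 libraries lay a little under all 3 shCtrl libraries. The means were 396 ± 26.7 CPM in sh718, 117 ± 5.10 in sh720 and 143 ± 4.58 in shCtrl (SD, n = 3 each). NOG was 2.77-fold higher in sh718 than in shCtrl, a log2 change of 1.47 (SE 0.10, interval 1.28 to 1.67). In sh720 the log2 change was -0.29 (SE 0.11, interval -0.51 to -0.06) and was not called over all genes. Between the hairpin lines the log2 difference was 1.76 (SE 0.10, interval 1.56 to 1.96), a 3.39-fold higher level in sh718. The order of the lines was thus sh718, shCtrl, sh720, of which shCtrl and sh720 are close together. In bulk RNA, more cells with the transcript and more transcript per cell cannot be told apart. CTHRC1 was lowest in sh718, and EPCAM (log2 -1.39, SE 0.27) and PECAM1 (1.03, SE 0.23) also stood apart in sh718 against shCtrl. The other tested epithelial markers did not share the fall of EPCAM. KRT8 lay at -0.03 (SE 0.10), KRT18 at 0.14 (SE 0.07) and KRT19 at 0.39 (SE 0.07), the last called higher, and CDH1 had too few counts for the test. Summed over the 7 markers of leukocytes, endothelium and fibroblasts, of which 4 had any count, the level was 51.2 to 54.6 CPM in sh718 libraries, 21.3 to 32.8 in sh720 and 24.5 to 30.0 in shCtrl. The leukocyte marker PTPRC had 2 counts in sh718, 4 in sh720 and 0 in shCtrl, COL1A1 had 7, 11 and 10, COL3A1 had 1, 2 and 2, and CD3E, VWF and DCN were not found by symbol among the genes of the deposited counts. Their part in the result was not tested.

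**Figure D2:**
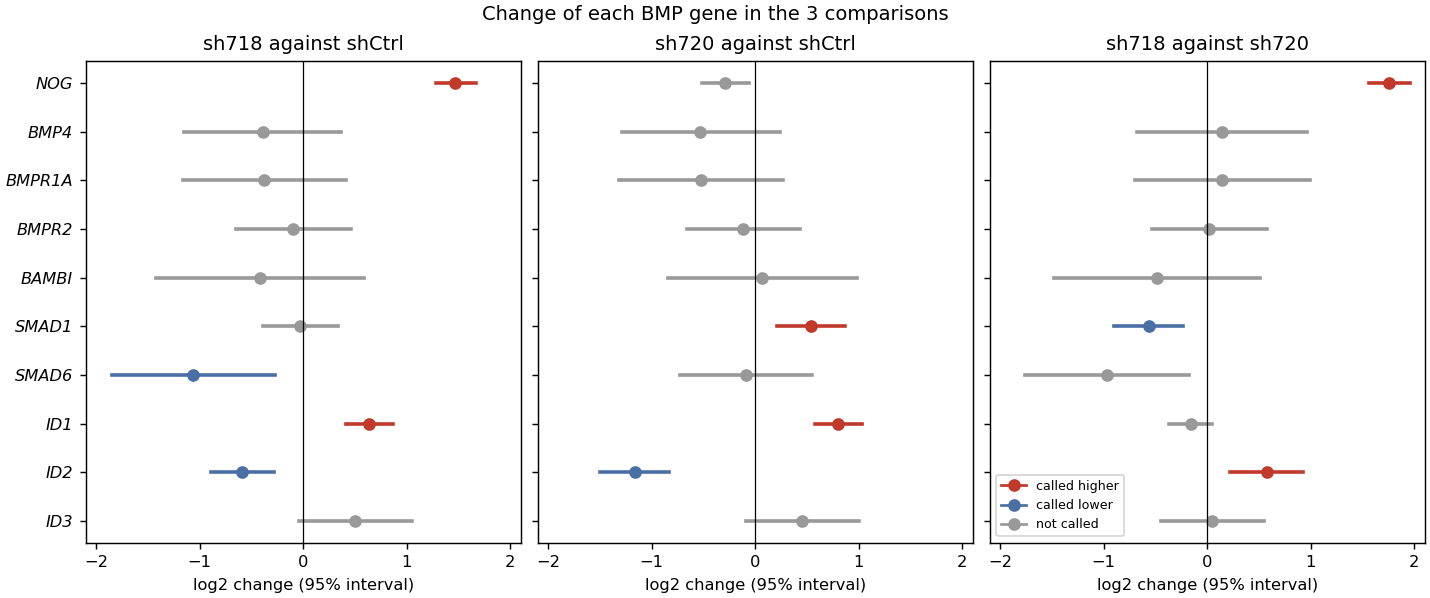
Log2 change (x axis) of each gene with its 95% interval in sh718 against shCtrl, sh720 against shCtrl and sh718 against sh720; red marks genes called higher, blue called lower and grey not called. NOG lies at 1.47 in sh718 and at -0.29 in sh720, and the intervals of BMP4, BMPR1A, BMPR2 and BAMBI span 0 in each comparison.

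The 5 tested genes that tracked NOG most closely over the 9 libraries, by Pearson's r of log2 CPM, were the urea transporter gene SLC14A1 (r = 0.996), FAM43A (0.995), the nuclear lamina gene LMNA (0.994), the hair keratin gene KRT81 (0.992) and the protease inhibitor gene TIMP1 (0.992). These r values describe libraries that share their lines. SLC14A1 averaged 143 CPM in sh718, 28.3 in sh720 and 37.4 in shCtrl, and FAM43A 287, 76.0 and 93.7. Like NOG, all 5 were high in sh718 and had means in sh720 a little under those in shCtrl. Since they were picked by r over these same libraries, nothing is read from that likeness.

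In sh718 the genes around NOG had smaller changes than NOG itself. Of 9 tested genes within 1 Mb on either side, 3 were called in sh718 against shCtrl, beside 20.4% of all tested genes. TRIM25 (log2 0.77, SE 0.13) and C17orf67 (0.79, SE 0.29) were higher and MSI2 (-0.54, SE 0.14) lower, and the median of the 9 was 0.09. The neighbour furthest from 0 was AC007114.1, at -0.99 (SE 0.46), which was not called. None of the 9 was called in sh720 against shCtrl by edgeR or DESeq2, beside 6.85% of all tested genes by edgeR. Of the 9, 2 had an unadjusted p under 0.05 in edgeR, and the median of the 9 was 0.07. Their values ran from -0.38 (DGKE) to 0.32 (SCPEP1), a range that takes in the -0.29 of NOG. No gene of the GENCODE v29 annotation overlaps NOG. Around ID1 10 genes were tested, with medians of 0.12 in sh718 and 0.08 in sh720. Of these, 4 were called in sh718 against shCtrl, PDRG1 (log2 0.57), BCL2L1 (0.48) and HM13 (0.29) higher and TM9SF4 (-0.42) lower, where ID1 itself stood at 0.64. In sh720 the 10 genes ran from -0.31 to 0.30, where ID1 stood at 0.80. Around ID2 7 genes were tested, with medians of 0.11 in sh718 and -0.03 in sh720. In sh718 IAH1 (log2 -0.85) was called lower and YWHAQ (0.36) higher, where ID2 itself stood at -0.59. In sh720 the 7 genes ran from -0.38 to 0.08, where ID2 stood at -1.16. NOG, ID1 and ID2 were chosen with their changes known, so nothing is read from smaller changes around them or from these counts of calls.

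**Figure D3:**
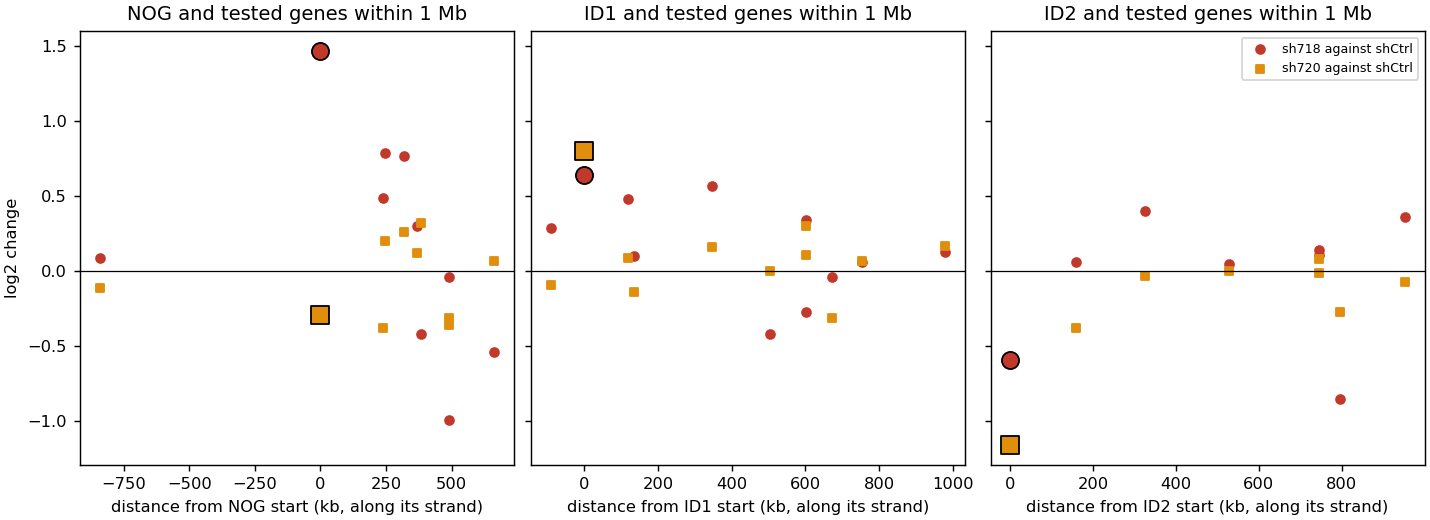
Log2 change (y axis) of NOG, ID1 and ID2 (outlined symbols at 0) and of the tested genes within 1 Mb, against the distance of each gene's start in kb along the strand of the named gene (x axis); circles are sh718 against shCtrl and squares sh720 against shCtrl. The neighbours of NOG lie between -0.99 and 0.79 in sh718, against 1.47 for NOG itself, and between -0.38 and 0.32 in sh720, against -0.29.

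The ligand and receptor genes were low and differed by less than the data could resolve. BMP4, the ligand, had 7, 14 and 8 counts in the sh718 libraries, 12, 9 and 7 in sh720, and 21, 7 and 11 in shCtrl, with means of 10.1 ± 3.27 CPM in sh718, 9.36 ± 2.74 in sh720 and 13.7 ± 8.40 in shCtrl (SD, n = 3 each). Its libraries overlapped, and a single shCtrl library was highest. The log2 change was -0.39 in sh718 (SE 0.38, interval -1.15 to 0.37) and -0.53 in sh720 (SE 0.38, interval -1.29 to 0.24). Without shCtrl library 1 these came to 0.18 and 0.04. BMPR1A, a type I receptor, averaged 9.31 ± 6.57 CPM in sh718, 8.72 ± 3.45 in sh720 and 12.5 ± 1.74 in shCtrl (SD, n = 3 each), with log2 changes of -0.38 and -0.52 (SE 0.39 and 0.40). Library 2 of sh718 had 16.9 CPM, against 5.81 and 5.22 in the others, and without it the sh718 change was -1.16. BMPR2, a type II receptor, averaged 22.1 ± 3.04, 21.8 ± 9.14 and 23.6 ± 5.73 CPM in sh718, sh720 and shCtrl. Its log2 changes of -0.10 (interval -0.65 to 0.46) and -0.12 (interval -0.66 to 0.43) leave out a change of 2-fold in either direction, whereas the intervals of BMP4 and BMPR1A do not leave out a 2-fold decrease. BAMBI, the decoy receptor, had 7, 8 and 1 counts in the sh718 libraries, 12, 8 and 4 in sh720, and 9, 7 and 6 in shCtrl. Its log2 changes were -0.42 in sh718 (SE 0.51, interval -1.42 to 0.59) and 0.07 in sh720 (SE 0.46, interval -0.84 to 0.98), and no difference was detectable at this depth. Without sh718 library 3, the one with 1 count, the sh718 change was 0.08, and with any other single library left out BAMBI had fewer than 60 counts and was not tested.

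The 2 SMAD genes moved in different lines. SMAD1, the BMP signal carrier, had 41.8, 64.6 and 49.1 CPM in sh718, 61.8, 78.9 and 90.7 in sh720, and 56.6, 62.3 and 42.9 in shCtrl. The sh720 libraries lay at the upper end, the lowest of them just under the highest shCtrl library. Its log2 change was 0.54 in sh720 (SE 0.16, interval 0.21 to 0.87) and -0.03 in sh718 (SE 0.18, interval -0.39 to 0.34). Between the hairpin lines it was -0.56 (SE 0.17, interval -0.90 to -0.23). The sh720 call was lost without sh720 library 2 (0.52) or 3 (0.39) or shCtrl library 1 (0.58) or 3 (0.37), the call between the hairpin lines without sh718 library 1 (-0.44) or sh720 library 3 (-0.43), and DESeq2 made neither. An exon of SMAD1 overlaps 376 bases of the antisense gene SMAD1-AS1, and how the counting treated strand is not stated in the labels. SMAD1-AS1 itself was not found among the genes of the deposited counts.

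SMAD6, the feedback inhibitor, had 8, 5 and 6 counts in the sh718 libraries (9.29, 4.97 and 6.27 CPM), 13, 13 and 14 in sh720 (13.2, 13.3 and 13.4 CPM), and 13, 13 and 15 in shCtrl (14.4, 14.5 and 13.7 CPM). All sh718 libraries lay under the other 6. The log2 change was -1.06 in sh718 (SE 0.40, interval -1.85 to -0.27), -0.09 in sh720 (SE 0.32, interval -0.73 to 0.55) and -0.97 between the hairpin lines (SE 0.40, interval -1.76 to -0.18), the last not called. With so few counts the sh718 call was lost without sh718 library 2 (-0.87) or 3 (-1.01), without shCtrl library 1 (-1.05), 2 (-1.05) or 3 (-1.10), with no filter on low counts and with DESeq2. The difference between the hairpin lines was called without sh718 library 1 (-1.23) or shCtrl library 3 (-0.97).

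The ID genes, the best known BMP targets, did not all move the same way. ID1 (ENSG00000125968, chromosome 20, 31605283 to 31606515, plus strand) had 192, 229 and 178 CPM in sh718, 222, 245 and 205 in sh720, and 120, 146 and 120 in shCtrl. All 6 hairpin libraries lay above all 3 shCtrl libraries, and the hairpin lines overlapped each other. ID1 was 1.56-fold higher in sh718 (log2 0.64, SE 0.11, interval 0.41 to 0.87) and 1.74-fold higher in sh720 (log2 0.80, SE 0.11, interval 0.58 to 1.03). Between the hairpin lines its log2 difference was -0.16 (SE 0.10, interval -0.37 to 0.05), not called.

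ID2 (ENSG00000115738, chromosome 2, 8678845 to 8684453, plus strand) ran the other way. It had 76.7, 50.7 and 57.5 CPM in sh718, 36.5, 42.0 and 43.9 in sh720, and 105, 94.5 and 77.6 in shCtrl. The 3 lines did not overlap, with shCtrl highest and sh720 lowest, although the highest sh718 library came within 1 CPM of the lowest shCtrl library. The log2 change was -0.59 in sh718 (SE 0.15, interval -0.89 to -0.28) and -1.16 in sh720 (SE 0.17, interval -1.50 to -0.83), and the log2 difference between the hairpin lines was 0.58 (SE 0.18, interval 0.22 to 0.93). The difference between the hairpin lines was not called without sh718 library 1 (0.40) or sh720 library 1 (0.50), and DESeq2 did not call it nor the change in sh718. The antisense gene ID2-AS1 overlaps 19 exon bases of ID2 and had 0 counts in sh718, 2 in sh720 and 3 in shCtrl.

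ID3 (ENSG00000117318, chromosome 1, 23557918 to 23559794, minus strand) had 16.3, 29.8 and 32.4 CPM in sh718, 22.3, 30.7 and 23.9 in sh720, and 20.0, 21.1 and 15.5 in shCtrl. The sh720 libraries lay above shCtrl and the sh718 libraries overlapped it. The log2 change was 0.50 in sh718 (SE 0.27, interval -0.04 to 1.05) and 0.45 in sh720 (SE 0.27, interval -0.09 to 1.00), and neither was called. The intervals reach from about no change to a 2-fold increase.

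Set against each other within a library, which needs no scaling between libraries, the counts of ID1 and ID2 gave the ratio ID1 over ID2. It was 2.50, 4.53 and 3.09 in sh718, 6.08, 5.83 and 4.67 in sh720, and 1.14, 1.54 and 1.55 in shCtrl. The 3 lines did not overlap in this ratio. ID1 made up 69.2% ± 4.15 of the summed ID1, ID2 and ID3 counts in sh718, 77.1% ± 1.95 in sh720 and 53.7% ± 4.14 in shCtrl (SD, n = 3 each). ID2 made up 21.6% ± 5.30, 14.1% ± 1.73 and 38.5% ± 3.90 in the same lines, and ID3 9.14% ± 3.22, 8.79% ± 0.871 and 7.83% ± 0.494. Summed over the 3 genes, the level was 287 ± 21.6 CPM in sh718, 291 ± 24.0 in sh720 and 240 ± 24.4 in shCtrl. Every hairpin library, at 267 CPM or more, lay above every shCtrl library, the highest of which had 261.

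**Figure D4:**
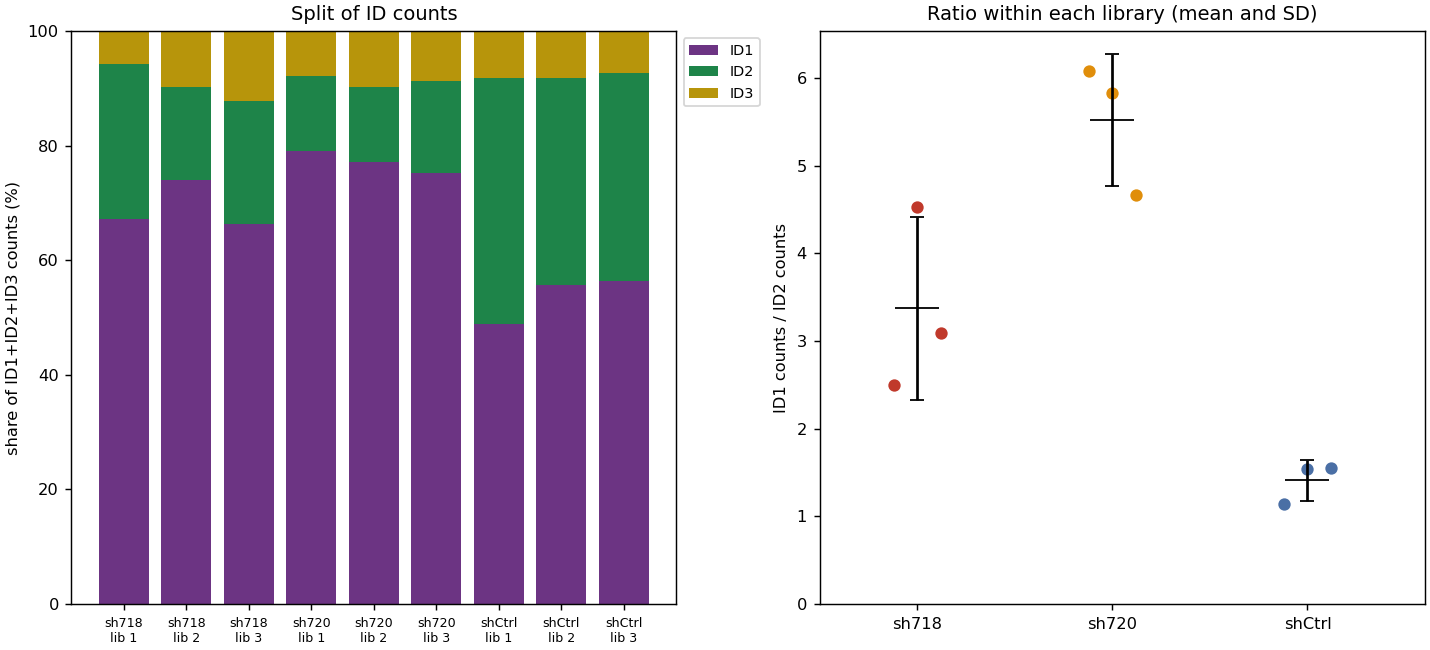
Left, share of the summed ID1, ID2 and ID3 counts (y axis, %) held by each gene in each library, drawn as stacked bars; right, ID1 counts over ID2 counts in each library (points) with the mean and SD per line. The ratio is 2.50 to 4.53 in sh718, 4.67 to 6.08 in sh720 and 1.14 to 1.55 in shCtrl.

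The middle value of the 3 ID genes was that of ID2 in all 9 libraries, so the genes most like it are those most like ID2. They were the ribosomal protein gene RPL37 (Pearson r = 0.954 over 9 libraries), the RNA polymerase III subunit gene POLR3A (0.944), the sialyltransferase gene ST3GAL6 (0.937), the processed pseudogene AC073861.1 (0.934) and the actin-linking gene VCL (0.933). As with ID2, each had its highest mean in shCtrl and its lowest in sh720, for instance 127 CPM in sh718, 95.5 in sh720 and 165 in shCtrl for POLR3A. The genes were picked by r over these same libraries, so nothing is read from the shared order.

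The rest of the pathway was taken from a list of 86 genes by textbook role, without the 10 genes above. The list was also drawn up with earlier results of these data known, so its calls and p-values are given as a description. Of these, 43 were tested, 21 had fewer than 60 counts and 22 were looked for but not found among the genes of the deposited counts. In sh718 against shCtrl 4 of the 43 rose and 5 fell, in sh720 against shCtrl 3 rose and 1 fell, and between the hairpin lines 7 were higher and 6 lower in sh718. That is 9, 4 and 13 genes of 43 (20.9%, 9.30% and 30.2%), not far from the 20.4%, 6.85% and 25.3% of all tested genes, and the list's medians were -0.03, -0.01 and 0.04. The count in sh720 came to 2 without sh720 library 1, 2 or 3 or shCtrl library 3, and the count between the hairpin lines to 8 without sh718 library 1. No other BMP or GDF ligand on the list reached 60 counts, and BMP8B had the most with 45 over the 9 libraries. Of 7 listed ligand-processing genes 2 were tested, FURIN and BMP1, and FURIN was not called in any comparison. BMP1, a protease that cleaves chordin, was called only between the hairpin lines, beside 25.3% of all tested genes (16.0 CPM in sh718 and 8.36 in sh720, log2 0.93, SE 0.36, edgeR adjusted p 0.0431). That call was lost without sh718 library 1 or 3 or sh720 library 2 or 3 (log2 0.71 to 0.91).

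**Figure D5:**
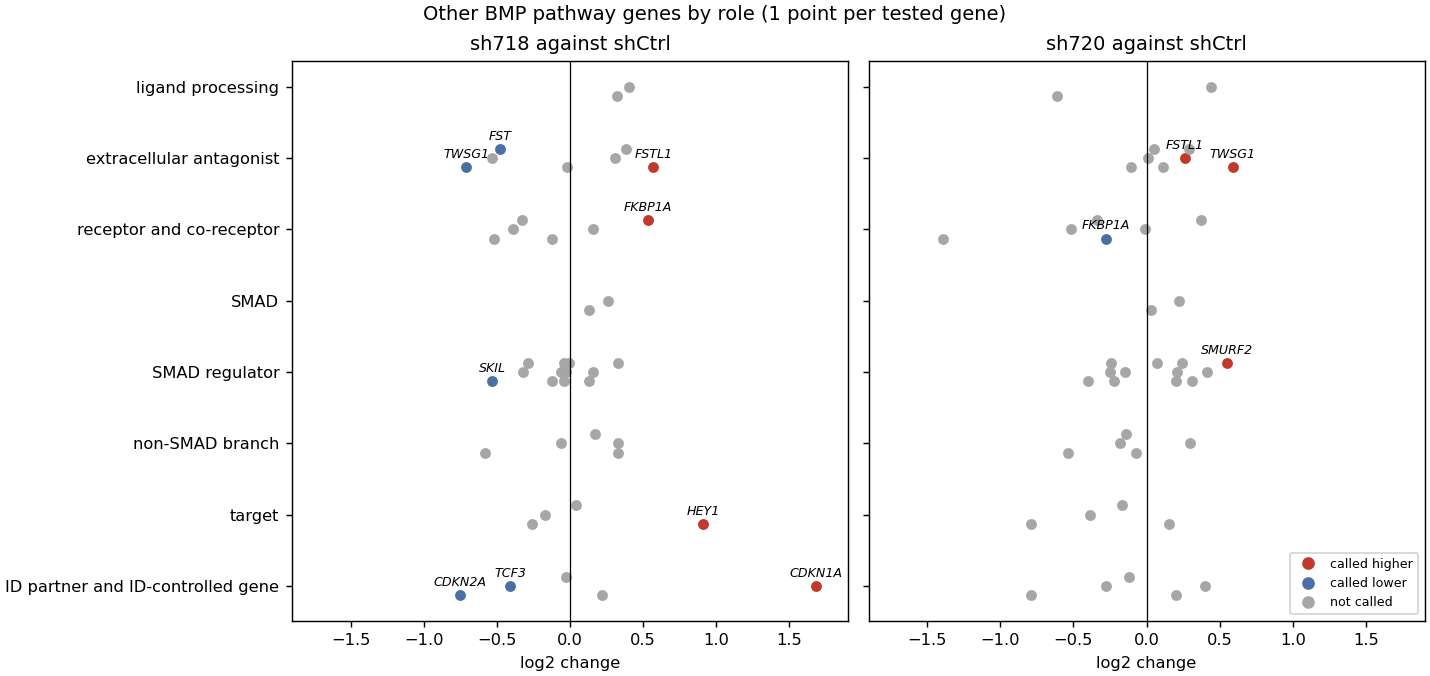
Log2 change (x axis) of the 43 tested pathway genes outside the 10, in rows by role, in sh718 against shCtrl and sh720 against shCtrl; red marks genes called higher, blue called lower and grey not called. Called genes are named, and within the antagonists FSTL1 rises while FST and TWSG1 fall in sh718.

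Of 16 other extracellular antagonists on the list 7 were tested, and those called changed in both directions. Against shCtrl 3 were called in sh718 and 2 in sh720, beside 20.4% and 6.85% of all tested genes. Nothing is read from a set of 7. CHRDL1, FSTL3, CRIM1 and NBL1 were not called in any comparison. FST, which encodes follistatin, an activin binder that also takes up some BMPs, had 492, 545 and 557 CPM in sh718, 755, 745 and 731 in sh720, and 714, 761 and 745 in shCtrl. It fell in sh718 (log2 -0.48, SE 0.07, edgeR adjusted p 1.74e-07) and lay at 0.01 in sh720, with a range of -0.02 to 0.03 as single libraries were left out. FSTL1, a secreted relative of follistatin, averaged 456 ± 11.8 CPM in sh718, 370 ± 17.2 in sh720 and 308 ± 24.1 in shCtrl. In sh718 it rose by 0.57 on the log2 scale (SE 0.08, edgeR adjusted p 1.06e-07). The rise in sh720 was smaller (log2 0.26, SE 0.08, edgeR adjusted p 0.0358), a call lost without any 1 of the sh720 libraries or without shCtrl library 1 or 3 (0.20 to 0.28). TWSG1, which binds BMPs together with chordin, had 16.3, 25.8 and 35.5 CPM in sh718, 65.9, 65.6 and 63.0 in sh720, and 52.2, 44.5 and 33.8 in shCtrl. It fell in sh718 (log2 -0.71, SE 0.22, edgeR adjusted p 0.0138) and rose in sh720 (0.59, SE 0.18, adjusted p 0.0234). The first call was lost without sh718 library 1 (-0.49) or shCtrl library 1 (-0.57), and the second without any 1 of the sh720 libraries or shCtrl library 2 or 3 (0.42 to 0.62). Between the hairpin lines TWSG1 was lower in sh718 by edgeR (log2 -1.30, SE 0.21, adjusted p 2.99e-07).

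Inside the cell, FKBP1A, whose protein holds type I receptors inactive, was higher in sh718 and lower in sh720. It averaged 1736 ± 45.4 CPM in sh718, 989 ± 61.1 in sh720 and 1205 ± 16.3 in shCtrl, with log2 changes of 0.53 (SE 0.06, edgeR adjusted p 2.05e-10) and -0.28 (SE 0.06, adjusted p 0.000988). SMAD5, the partner of SMAD1, was not called, with log2 values of 0.13 and 0.03, nor was SMAD4 at 0.26 and 0.22. The inhibitory SMAD7 had 3 counts in sh718, 18 in sh720 and 11 in shCtrl, and SMAD9 had 25, 23 and 9, too few for the test. Of 12 tested SMAD regulators 1 was called against shCtrl in each line, beside 20.4% of all tested genes in sh718 and 6.85% in sh720. The co-repressor gene SKIL fell in sh718 to 37.2 CPM, against 54.3 in shCtrl (log2 -0.53, SE 0.18, edgeR adjusted p 0.0293), a call lost without sh718 library 1 or shCtrl library 1 or 3 (-0.56 to -0.41). The ubiquitin ligase gene SMURF2 rose in sh720 to 117 CPM, against 80.5 in shCtrl (log2 0.55, SE 0.14, edgeR adjusted p 0.00363), a call lost without sh720 library 3 (0.38). Its lower level in sh718 than in sh720 (log2 -0.39) was called with all libraries, but not without sh718 library 1 (-0.31) or sh720 library 3 (-0.23). SKI, another co-repressor gene, was called only between the hairpin lines (39.4 CPM in sh718 and 58.8 in sh720, log2 -0.57, SE 0.18, edgeR adjusted p 0.011), which was lost without sh718 library 1 (-0.48). None of the 5 genes of the non-SMAD branch was called by edgeR or DESeq2 in any comparison. With 20.4%, 6.85% and 25.3% of all tested genes called by edgeR, nothing is read from a set of 5. TAB2 had an unadjusted p under 0.05 in edgeR in each line against shCtrl (1, 1 and 0 genes in the 3 comparisons). XIAP, which had the most counts of the 5, lay at -0.06 in sh718 and -0.07 in sh720.

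Among other BMP targets, HEY1, a helix-loop-helix repressor gene that Notch also controls, had 144, 174 and 180 CPM in sh718, 78.0, 84.0 and 74.5 in sh720, and 82.2, 91.2 and 92.1 in shCtrl. It rose in sh718 (log2 0.91, SE 0.12, edgeR adjusted p 1.94e-08) and lay at -0.17 in sh720, not called. JUNB (-0.17 in sh718 and 0.15 in sh720), MSX1 (-0.26 and -0.39) and SNAI2 (0.04 and -0.79) were not called against shCtrl. SNAI2 was called between the hairpin lines (22.2 CPM in sh718 and 12.2 in sh720, log2 0.83, SE 0.31, edgeR adjusted p 0.0322), a call lost without sh718 library 1 or 3 or sh720 library 1 or 2 (0.69 to 0.77). Of the E proteins that ID proteins bind, TCF3 fell in sh718 to 71.8 CPM, against 95.3 in shCtrl (log2 -0.41, SE 0.14, edgeR adjusted p 0.0264), a call lost without sh718 library 3 (-0.33) or shCtrl library 2 (-0.42) or 3 (-0.33). TCF12 was not called (0.22 and 0.40). TCF4 lay at -0.03 and -0.79, uncalled against shCtrl. It differed between the hairpin lines (28.0 CPM in sh718 and 16.2 in sh720, log2 0.76, SE 0.28, edgeR adjusted p 0.0331), a call lost without sh718 library 1 or 3 or sh720 library 1 or 2 (0.61 to 0.67), and in sh720 against shCtrl it was called without sh718 library 2 (-0.79) or sh720 library 3 (-1.04). The cell cycle inhibitor gene CDKN1A, which E proteins activate, had 39, 36 and 38 counts in sh718, 21, 10 and 12 in sh720, and 8, 17 and 11 in shCtrl. It rose in sh718 (log2 1.68, SE 0.30, edgeR adjusted p 2.08e-06) and lay at 0.20 in sh720. CDKN2A, another such inhibitor gene, fell in sh718 to 89.9 ± 14.0 CPM, against 152 ± 14.4 in shCtrl (SD, n = 3 each; log2 -0.75, SE 0.13, edgeR adjusted p 5.98e-06), and stood at 141 ± 18.5 CPM in sh720 (log2 -0.12). DESeq2 made none of these calls for BMP1, SMURF2, SKI, SNAI2, TCF3 or TCF4, nor those of TWSG1 and SKIL against shCtrl and of FSTL1 in sh720. With no filter on low counts, the calls of BMP1, SNAI2 and TCF3, of SKIL against shCtrl and of FSTL1 in sh720 were lost too.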

How the data were processed

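RNA of 3 PC3-Luc lines was sequenced, and the authors deposited their raw, unscaled counts for each Ensembl gene in 9 columns, 3 numbered libraries for each line. Per the labels, reads were single, of 75 bp, and the stated yield was 3000000 per sample. Trim Galore and GRCh38 are the tool and build named in the submitters' processing notes, with aligner, counter, strand setting and annotation not given in the sources used here.

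Features with at least 60 counts over the 9 libraries (9556) were tested with edgeR 4.0.16 (TMM, glmQLFit and glmQLFTest; R 4.3.3) with line as the only factor in 1 model, and p-values were adjusted by Benjamini-Hochberg within each comparison (threshold 0.05). SEs come from the fitted information matrix and the moderated quasi-dispersion. The alternatives were RLE scaling, DESeq2 1.42.0, no filter on low counts, a block for library number, and each library left out. The code was tested on simulated data.

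The members and lists were chosen with earlier results of these data known. Of the pathway list, up to 4 called genes per role are named, or the tested gene with the most counts. SMAD4, SMAD7, SMAD9, JUNB, MSX1, TAB2, TCF12 and BMP8B, and the neighbours of NOG, ID1 and ID2, were named after their values were seen. So were BMPR1B, ACVR1, CHRDL1, FSTL3, CRIM1, NBL1 and FURIN. Positions are from GENCODE v29, promoters from RefSeq.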

Additional observations from a re-analysis of the deposited data

Results flagged for a closer look

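The sh718 and sh720 lines differed from each other for some genes in edgeR's direct comparison, given here as log2 sh718 over sh720. The hairpin and the line cannot be told apart. Among the 10 BMP genes these were NOG at 1.76, ID2 at 0.58 and SMAD1 at -0.56, given as a description, as are the list genes that follow. Among extracellular antagonists and ligand processing they were TWSG1 at -1.30, FST at -0.48, FSTL1 at 0.30 and BMP1 at 0.93. FKBP1A stood at 0.81, SKIL at -0.74, SKI at -0.57 and SMURF2 at -0.39. HEY1 stood at 1.08, SNAI2 at 0.83, CDKN1A at 1.48, TCF4 at 0.76 and CDKN2A at -0.63.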

How the results depend on the processing

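DESeq2 called fewer genes. It called 1007 genes in sh718 against shCtrl (edgeR 1947), 298 in sh720 against shCtrl (655) and 1293 between the hairpin lines (2419). Of the 10 BMP genes it called 2, 2 and 1 in these comparisons, where edgeR called 4, 3 and 3. Of the pathway list it called 6, 1 and 8, where edgeR called 9, 4 and 13. With single libraries left out, the list's count was 2 to 5 in sh720 against shCtrl and 8 to 13 between the hairpin lines. The calls of NOG and ID1, and that of ID2 in sh720, held under every alternative run. No called change of a named gene reversed under any alternative run. Uncalled values of the 10 BMP genes that changed sign with a library left out were those of BMP4 in sh718 (-0.70 to 0.18), in sh720 (-0.78 to 0.04) and between the hairpin lines (-0.17 to 0.37), BMPR2 in the same comparisons (-0.22 to 0.09, -0.37 to 0.19 and -0.30 to 0.26), BMPR1A between the hairpin lines (-0.64 to 0.44), SMAD1 in sh718 (-0.22 to 0.10), ID3 between the hairpin lines (-0.12 to 0.28), and BAMBI without sh718 library 3 in sh718 (0.08) and between the hairpin lines (0.01). Among the list genes named for a call or for the most counts they were those of CDKN1A in sh720 (-0.20 to 0.58), FST in sh720 (-0.02 to 0.03), SMAD5 in sh720 (-0.08 to 0.10) and between the hairpin lines (-0.01 to 0.20), SNAI2 in sh718 (-0.11 to 0.24), TCF4 in sh718 (-0.18 to 0.20) and XIAP in sh718 (-0.23 to 0.03), in sh720 (-0.21 to 0.03) and between the hairpin lines (-0.16 to 0.10). The causes were not tested. The library numbers are not known to pair the samples, since deviations of same-numbered libraries correlated at -0.013 to 0.022. With the replicate block, 1977, 680 and 2425 genes were called, and the counts of BMP genes were 4, 3 and 3. Depth limits BMP4, BMPR1A, BAMBI and SMAD6 most, with 100 counts or fewer each over 9 libraries.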
